A study of Mus musculus with 6 samples.

Results

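Retinoic acid is made from vitamin A inside cells, acts on nuclear receptors and is cleared by dedicated enzymes, and 9 genes that carry out these steps were examined in cultured embryonic mouse salivary glands given TGF-β1 or left untreated. The 9 genes were chosen by symbol: Aldh1a1, Aldh1a2 and Aldh1a3 for synthesis, Cyp26a1 and Cyp26b1 for breakdown, Crabp2 for intracellular transport, and Rara, Rarb and Rarg for the receptors. All 9 were found among the 19505 genes of the deposited table, each through 1 probe set. Values are on the log2 scale, 1 per probe set and array, so a difference of 1 is a change of 2-fold.

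The TGF-β1 group holds 3 arrays of glands cultured for 72 hours with TGF-β1, a secreted growth factor, and the control group holds 3 arrays of glands cultured as long without it. All glands came from mouse embryos of a stage written as T13; the labels do not state which salivary gland, strain, sex or dose was used. The study asked what TGF-β1 does to these glands. Whether the arrays of a group stand for separate cultures or animals is not stated either, and each p-value therefore covers the spread among these arrays alone, part or all of which may be technical.

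In the usual route, retinol is first oxidised to retinaldehyde, and the Aldh1a enzymes turn retinaldehyde into retinoic acid. Crabp2 carries retinoic acid to the nucleus, where the receptors Rara, Rarb and Rarg, paired with retinoid X receptors, bind DNA at retinoic acid response elements, while the Cyp26 enzymes hydroxylate retinoic acid and so end its action. Retinoic acid is known as a signal for growth and branching of the mouse submandibular gland.

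One array, control 3, was unlike the rest, with a Pearson correlation across genes of 0.550 to 0.601 to the other 5. Those 5 were correlated at 0.948 to 0.990, and the lowest of these values involved TGF-β1 3. Its interquartile range was 2.05, against 3.17 to 3.26 in the other arrays, and Gapdh, a glycolytic enzyme that every cell uses, was at 6.21 in control 3 and at 11.87 or above in the others. The quartiles of control 3 were 5.79 and 7.84, against 5.11 to 5.15 and 8.32 to 8.39 elsewhere. Dim genes thus lay higher and bright genes lower in this array. Every difference below is TGF-β1 minus control from limma with array weights, a fit of all 6 arrays. The weights were 0.0338 for control 3, 0.398 for TGF-β1 3 and 1.65 to 4.52 for the remaining arrays. Values without control 3 and TGF-β1 3, called the fit of 4 arrays, stand beside it. "Rose" and "fell" are used of genes with an adjusted p under 0.05 in the weighted fit, adjusted over all genes. A marker of epithelium was present: Epcam, an adhesion molecule of epithelial cells in general, was at 10.11, 10.10 and 10.27 in TGF-β1 arrays 1 to 3, against 9.63, 8.93 and 6.40 in controls 1 to 3. It is 1 of the 12 salivary epithelial markers described further below, some of which differed in the other direction.

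Of the 9 genes, 1 rose, 0 fell and 8 did not pass. Aldh1a1, which makes retinoic acid from retinaldehyde, was the gene that rose. Over all genes 3.45% rose and 3.44% fell, 6.88% in all, so 1 of 9 is read against that share. The median difference of the 9 genes was -0.05, beside 0.01 over all genes. Groups that did not overlap were found for the same gene, Aldh1a1, as for 11.6% of all genes (5.8% with TGF-β1 higher and 5.78% with it lower). With no weights, 0 of the 9 passed, as 0% of all genes did, and Aldh1a1 was the 1 of 9 with an unadjusted p under 0.05 in limma, beside 1.99% of all genes. In the fit of 4 arrays, 0 of the 9 passed, beside 2.59% of all genes.

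Aldh1a1 (Entrez gene 11668) was at 6.81, 6.49 and 6.20 in TGF-β1 arrays 1 to 3, against 5.93, 4.88 and 5.64 in controls 1 to 3. All TGF-β1 arrays were above all controls, control 2 was the lowest, and control 1 the nearest to the TGF-β1 arrays. The groups averaged 6.50 ± 0.30 with TGF-β1 and 5.48 ± 0.54 in controls (SD, n = 3 each). With array weights Aldh1a1 rose by 1.50 ± 0.24 (SE, adjusted p = 0.0040), a fold of 2.83 with a 95% interval of 1.96 to 4.10. Control 2, the lowest array, carried the largest weight, and the difference was 1.02 ± 0.39 with no weights (adjusted p = 0.776) and 1.24 ± 0.32 in the fit of 4 arrays (adjusted p = 0.1005). The call was lost in each of 7 fits that left out 1 array (each of the 6 with weights estimated anew, and control 3 also with no weights), with differences of 0.43 to 1.41 and adjusted p of 0.0681 to 0.979. The difference was lowest in the fits without TGF-β1 1 (0.43), TGF-β1 2 (0.59), TGF-β1 3 (0.73) and control 2 (0.88). Because the weights changed too, these shifts cannot be credited to the lost array alone. TGF-β1 3 was the lowest TGF-β1 array, and its loss with unchanged weights would raise the difference. The exact two-sided permutation test of the 6 unweighted values gave p = 0.1, the smallest that 3 against 3 arrays allow.

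The signal of Aldh1a1 was dim. It lay below the array's median over all probe sets in 5 of the 6 arrays, and below the lower quartile in 2 of them, controls 2 and 3. No measure of background is given, so a difference between values this low may understate or overstate the change in transcript.

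Aldh1a7 (Entrez gene 26358) is a close mouse paralogue of Aldh1a1, and no other protein-coding gene lies between them on chromosome 19. It was at 9.72, 9.82 and 8.37 in TGF-β1 arrays 1 to 3, against 9.09, 7.67 and 6.49 in controls 1 to 3. TGF-β1 3 lay below control 1, so the groups overlapped. Aldh1a7 rose by 1.64 ± 0.32 (adjusted p = 0.0111), and differed by 1.39 ± 0.40 in the fit of 4 arrays (adjusted p = 0.136). The difference was 0.048 without TGF-β1 1, 0.0055 without TGF-β1 2, 0.72 without TGF-β1 3 and 2.60 without control 1. The weights were estimated anew in each of these fits, so the shifts cannot be credited to the lost array alone. TGF-β1 3 was the lowest TGF-β1 array, and its loss with unchanged weights would raise the difference. In both genes control 2 lay below control 1, by 1.04 in Aldh1a1 and by 1.43 in Aldh1a7. Because the paralogues are alike in sequence and the probe sequences were not analysed here, transcript of one may have been read by the probe set of the other, which was not tested.

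The likeness extends to the regions in front of both genes, which are shown here since both genes passed in the same direction. The sequences are RefSeq promoters of GRCm38.p6, from 250 bases before to 50 bases after the start, at chr19:20601718-20602017 on the plus strand for Aldh1a1 and chr19:20727507-20727806 on the minus strand for Aldh1a7. Capitals mark the longest run without a difference, 65 bases long, which lies between 94 and 30 bases before the start in both genes.
Aldh1a1: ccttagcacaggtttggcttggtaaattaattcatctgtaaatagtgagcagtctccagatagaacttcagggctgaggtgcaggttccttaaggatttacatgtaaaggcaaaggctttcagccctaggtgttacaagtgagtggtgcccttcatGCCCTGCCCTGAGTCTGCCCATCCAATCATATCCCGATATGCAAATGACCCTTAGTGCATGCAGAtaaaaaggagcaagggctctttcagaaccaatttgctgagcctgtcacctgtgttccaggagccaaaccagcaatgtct
Aldh1a7: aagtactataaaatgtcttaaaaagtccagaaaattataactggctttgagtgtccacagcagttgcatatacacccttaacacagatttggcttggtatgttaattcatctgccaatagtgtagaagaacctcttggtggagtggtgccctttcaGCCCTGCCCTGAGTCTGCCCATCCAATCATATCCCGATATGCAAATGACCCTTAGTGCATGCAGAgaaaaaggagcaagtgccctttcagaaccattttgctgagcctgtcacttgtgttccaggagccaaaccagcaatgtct
Aligned end to end, 70.4% of the 318 columns were identical. The other start that RefSeq lists for Aldh1a1 gave 50.6% against the same Aldh1a7 region.

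**Figure D1:**
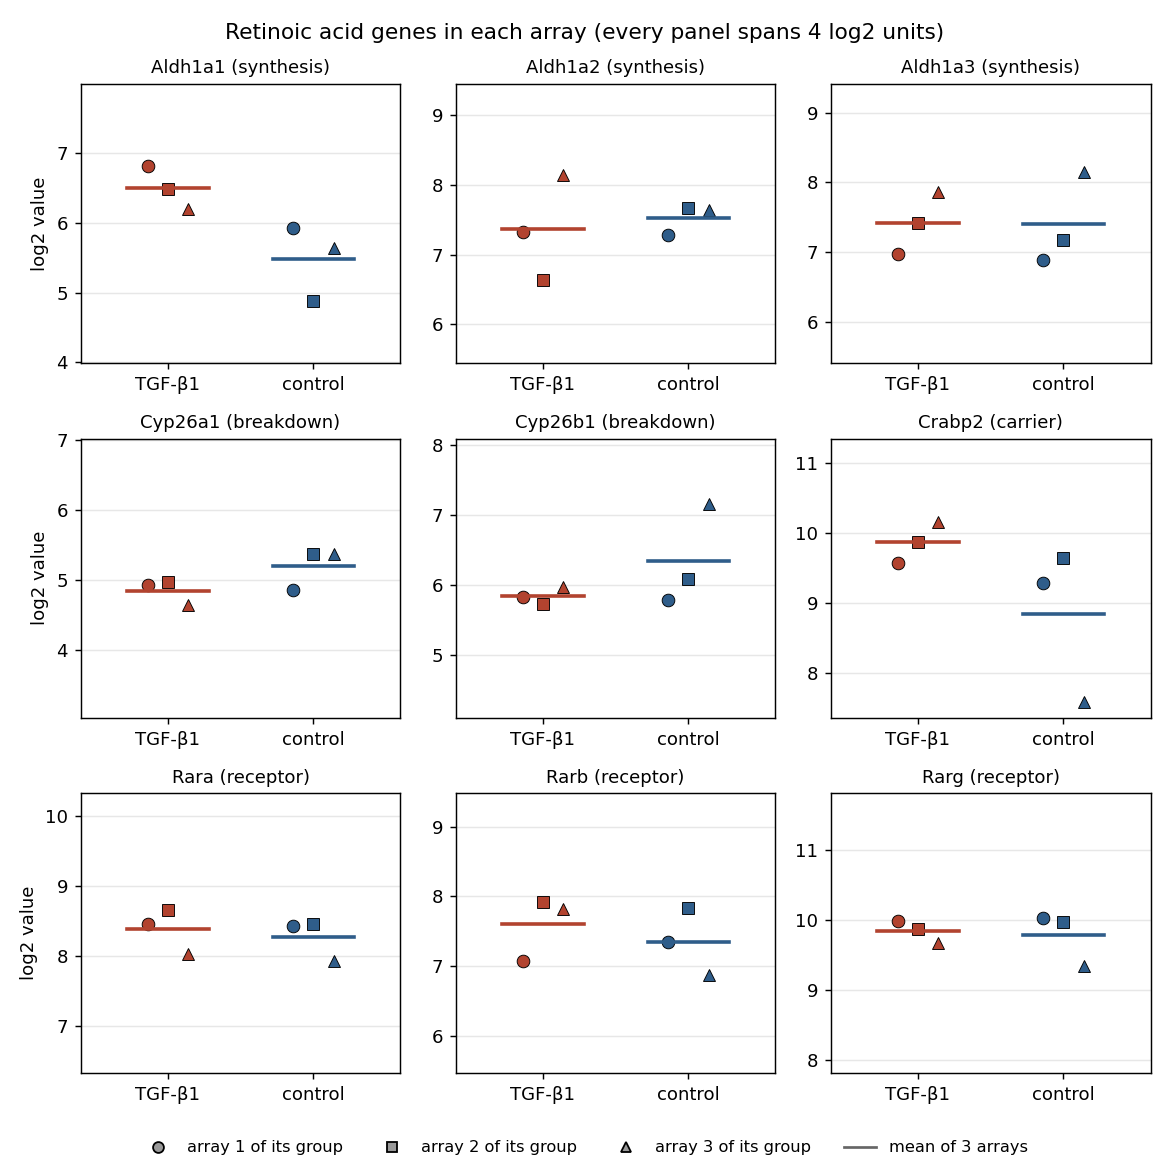
Log2 value of each of the 9 genes in every array, TGF-β1 left of control in each panel; symbols give the array number within its group and lines the unweighted means of 3 arrays. Aldh1a1 is the gene whose groups do not overlap, and control 3 (blue triangle) is the lowest array for Crabp2, Rara, Rarb and Rarg and the highest for Aldh1a3, Cyp26a1 and Cyp26b1.

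The other enzymes of synthesis did not pass. Aldh1a2 (Entrez gene 19378), the main enzyme of retinoic acid synthesis in the early mouse embryo, was at 7.32, 6.63 and 8.14 in TGF-β1 arrays 1 to 3, against 7.28, 7.67 and 7.64 in controls 1 to 3. The TGF-β1 arrays held both the lowest and the highest value, 1.51 apart. The weighted difference was -0.42 ± 0.23 (95% interval -0.93 to 0.08, adjusted p = 0.342). Aldh1a3 (Entrez gene 56847), an enzyme of the same reaction found in many epithelia, was at 6.98, 7.43 and 7.87 with TGF-β1, against 6.89, 7.18 and 8.14 in controls. The groups overlapped over nearly their whole range, and the difference was 0.07 ± 0.19 (95% interval -0.34 to 0.47, adjusted p = 0.896).

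Neither enzyme of breakdown passed. Cyp26a1 (Entrez gene 13082), a hydroxylase of retinoic acid that retinoic acid itself is known to induce, was at 4.94, 4.98 and 4.64 in TGF-β1 arrays 1 to 3, against 4.86, 5.37 and 5.38 in controls 1 to 3. These are very dim values, below the lower quartile of the array in 5 of the 6 arrays. The difference was -0.30 ± 0.16 (95% interval -0.66 to 0.06, adjusted p = 0.344). Cyp26b1 (Entrez gene 232174), a hydroxylase with the same role, was at 5.84, 5.73 and 5.98 with TGF-β1, against 5.79, 6.09 and 7.16 in controls. Control 3 was far above the rest, and the other 5 arrays lay within 0.36 of each other. The weighted difference was -0.21 ± 0.15 (95% interval -0.53 to 0.12, adjusted p = 0.497), while the unweighted one, which counts control 3 in full, was -0.50 ± 0.42.

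Crabp2 (Entrez gene 12904), the carrier that delivers retinoic acid to its receptors, was at 9.58, 9.88 and 10.16 in TGF-β1 arrays 1 to 3, against 9.29, 9.65 and 7.58 in controls 1 to 3. Control 3 was lower than all other arrays, and control 2 lay above TGF-β1 1. The weighted difference was 0.17 ± 0.18 (95% interval -0.22 to 0.55, adjusted p = 0.670). With no weights it was 1.03 ± 0.57 (adjusted p = 0.776), a size that rests on control 3, since it was 0.40 ± 0.23 without that array.

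None of the 3 receptors passed. Rara (Entrez gene 19401), the receptor known to be expressed most widely, was at 8.46, 8.65 and 8.02 in TGF-β1 arrays 1 to 3, against 8.43, 8.45 and 7.93 in controls 1 to 3. TGF-β1 3 and control 3 were the low arrays of their groups, and the difference was 0.05 ± 0.15 (95% interval -0.27 to 0.37, adjusted p = 0.897). Rarg (Entrez gene 19411), a receptor prominent in skin and cartilage, was at 9.99, 9.87 and 9.67 with TGF-β1, against 10.02, 9.97 and 9.34 in controls. Without control 3 its 5 values spanned 0.36, and the difference was -0.05 ± 0.14 (95% interval -0.35 to 0.25, adjusted p = 0.903), which leaves room for a fold of 0.785 to 1.19.

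Rarb (Entrez gene 218772), a receptor whose own gene is a classical target of retinoic acid, was at 7.07, 7.91 and 7.82 in TGF-β1 arrays 1 to 3, against 7.34, 7.83 and 6.87 in controls 1 to 3. The groups overlapped, and TGF-β1 1 was the second lowest array. The weighted difference was -0.30 ± 0.24 (95% interval -0.82 to 0.22, adjusted p = 0.546). Its sign was not settled: it was 0.25 ± 0.40 with no weights, and 0.01 ± 0.31 with no weights and without control 3.

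Rarb and Cyp26a1 are the members whose promoters held the letters of a retinoic acid response element, and they are shown for that reason. The element searched was a pair of 6-base words in the same orientation with 5 bases between them, each word being either AGGTCA itself or its variant AGTTCA or its variant GGGTCA or its variant GGTTCA, on both strands. RefSeq promoters were at hand for 7 of the 9 genes, with 12 starts; Aldh1a3 and Crabp2 had none there. Of all 32851 promoters of 300 bases, 32 (0.0974%) held the pair. The Rarb element lies 53 to 37 bases before the start, in chr14:16575483-16575559 on the minus strand, and the Cyp26a1 element lies 32 to 16 bases before the start, in chr19:37697746-37697822 on the plus strand, both in GRCm38.p6. The sequences below run 5′ to 3′ along the gene and capitals mark the words, which in Cyp26a1 read on the opposite strand.
Rarb: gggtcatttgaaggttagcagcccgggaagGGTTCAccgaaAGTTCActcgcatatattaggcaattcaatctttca
Cyp26a1: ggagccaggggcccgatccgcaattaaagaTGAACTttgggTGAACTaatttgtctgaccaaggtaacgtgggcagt
Pairs with 1 or 2 bases between the words were in 0.222% and 0.268% of all promoters and in none of the 12 searched for these genes. A match is a description of letters. Both genes carrying the element had differences whose 95% intervals included 0.

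**Figure D2:**
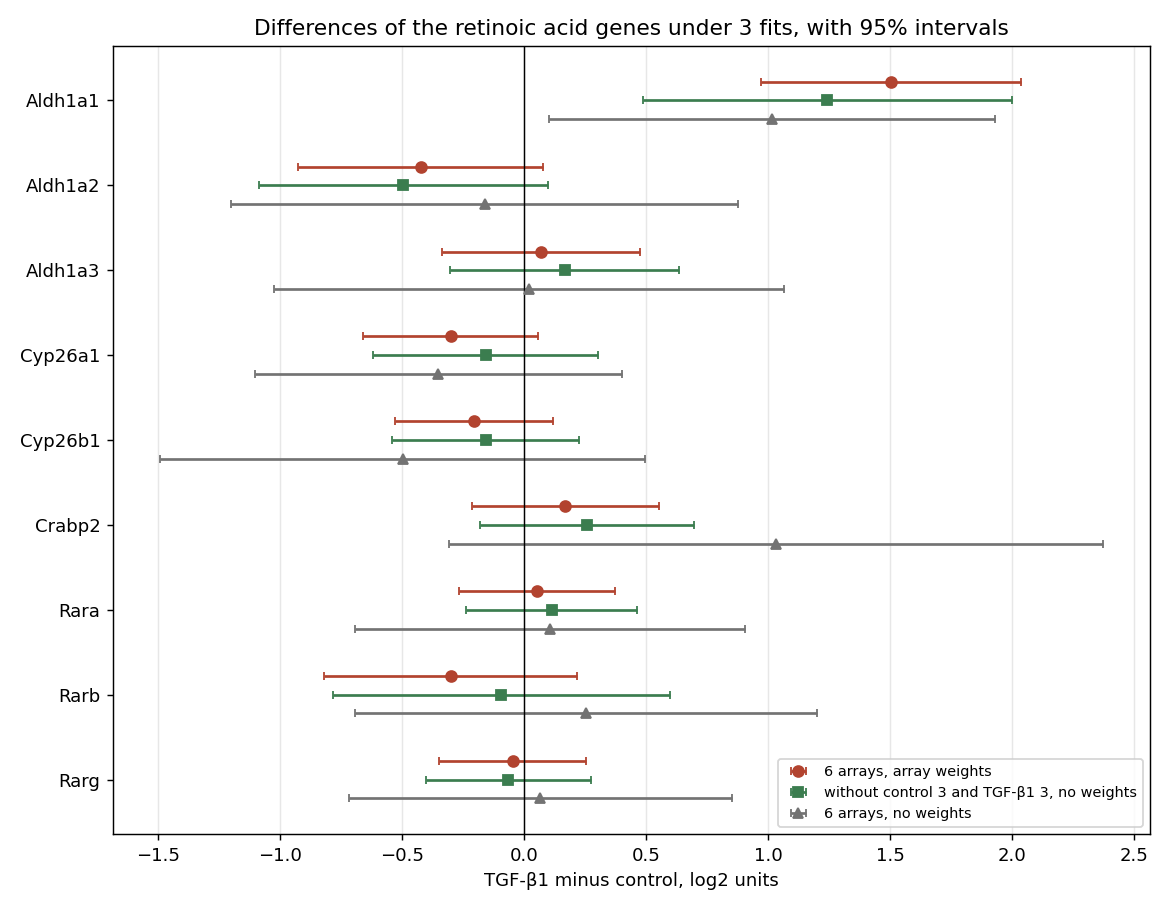
Difference of each of the 9 genes (TGF-β1 minus control, log2 units) with its 95% interval in 3 limma fits: 6 arrays with array weights, the 4 arrays left without control 3 and TGF-β1 3, and 6 arrays with no weights. Aldh1a1 lies farthest above 0 among the weighted differences, at 1.50, and Crabp2 moves most between fits, from 0.17 with weights to 1.03 without.

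Further genes of the pathway were counted in 6 lists of 80 genes, of which 70 were measured. Of the 70, 3 rose, 5 fell and 62 did not pass, beside the 6.88% of all genes. Their median difference was 0.01, as over all genes (0.01). In the fit of 4 arrays 3 of the 70 passed: Foxa1, Cyp1b1 and Bhlhe40. Of the 8, Foxa1 and Cyp1b1 also passed in 2 of the 7 fits that left out 1 array, namely without control 3 (adjusted p = 0.0188 and 0.0090) and without TGF-β1 3 (adjusted p = 0.0169 and 0.0429), and the other 6 genes in none. Those 7 fits passed 0 to 544 genes of the whole table.

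The genes upstream of the Aldh1a enzymes gave no call in the weighted fit. Of 10 measured genes of vitamin A uptake, transport and storage, 0 rose and 0 fell, and the median was -0.08. Stra6, the membrane receptor that takes up retinol from its carrier protein in blood, had the smallest p of this list. It was at 7.86, 8.13 and 7.14 in TGF-β1 arrays 1 to 3, against 8.32, 8.61 and 8.83 in controls 1 to 3. Its groups did not overlap, and its difference of -0.62 ± 0.17 had an adjusted p of 0.0513. Stra6 passed in 3 of its 17 alternatives, with averaged probe sets (adjusted p = 0.0477), with a trended prior (adjusted p = 0.0470) and with the dimmest genes left out (adjusted p = 7.51e-04). Averaging left its own values as they were, since it has 1 probe set. With the dimmest genes left out, 4349 of 13003 genes passed. Of 16 measured genes that convert retinol and retinaldehyde into each other, 0 rose and 0 fell, with a median of 0.03 and differences between -0.33 and 0.54. Dhrs4, a reductase of retinaldehyde and other carbonyls, was at 9.47, 9.15 and 9.39 with TGF-β1, against 8.86, 8.93 and 8.29 in controls, and differed by 0.45 ± 0.15 (adjusted p = 0.0959). Dhrs4 passed in 1 of its 17 alternatives, with the dimmest genes left out (adjusted p = 0.0051), beside the same 4349 of 13003 genes. In the same list Rdh10, the main retinol dehydrogenase of the mouse embryo, was at 8.42, 8.16 and 9.58 with TGF-β1, against 8.89, 8.50 and 7.95 in controls, and Dhrs3, which turns retinaldehyde back into retinol, differed by -0.08 ± 0.19.

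Among 6 measured paralogues of the synthesis and breakdown enzymes, 1 rose, Aldh1a7, and 1 fell, Cyp1b1. Cyp1b1, a cytochrome that can oxidise retinol and retinaldehyde as well as steroids, was at 6.52, 6.84 and 6.66 in TGF-β1 arrays 1 to 3, against 7.99, 8.01 and 5.86 in controls 1 to 3. Its TGF-β1 arrays lay within 0.33 of each other, more than 1 log2 unit below controls 1 and 2, while control 3 was the lowest array of all. Cyp1b1 fell by 1.36 ± 0.16 (adjusted p = 7.85e-04), and by 1.32 ± 0.16 in the fit of 4 arrays (adjusted p = 0.0192). With no weights the difference was -0.61 ± 0.61, and it was -0.30 without control 1 and -0.29 without control 2. Cyp26c1, the remaining retinoic acid hydroxylase, was at 4.82, 5.09 and 4.75 with TGF-β1, against 4.77, 4.87 and 6.22 in controls. These are very dim values, below the array's lower quartile (5.11 to 5.15) in every array but control 3.

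Of 7 measured binding proteins and nuclear receptors, 0 rose and 2 fell. Nr2f1 and Nr2f2, orphan nuclear receptors known to bind response elements of the same type as the retinoic acid receptors, were the genes that fell. Nr2f1 was at 9.73, 9.53 and 10.02 in TGF-β1 arrays 1 to 3, against 10.25, 10.84 and 9.19 in controls 1 to 3, and fell by 0.99 ± 0.18 (adjusted p = 0.0080). Nr2f2 was at 10.82, 11.05 and 10.35 with TGF-β1, against 11.44, 11.75 and 9.66 in controls, and fell by 0.78 ± 0.17 (adjusted p = 0.0179). For both, the TGF-β1 arrays lay below controls 1 and 2 and above control 3. In the fit of 4 arrays Nr2f1 differed by -0.91 (adjusted p = 0.0826) and Nr2f2 by -0.66 (adjusted p = 0.109). Nr2f1 was at -0.33 with no weights, -0.34 without control 1 and -0.039 without control 2, and at -0.46, -0.36 and -0.60 without TGF-β1 1, 2 and 3. Nr2f2 turned sign without control 1 (0.17) and without control 2 (0.32), and was at -0.47 without TGF-β1 3 and -0.21 with no weights. The retinoid X receptors, the partners of the retinoic acid receptors, did not pass: Rxra differed by 0.12 ± 0.15, Rxrb by -0.10 ± 0.16 and Rxrg by -0.32 ± 0.20. Fabp5, a fatty acid binding protein that also carries retinoic acid, differed by 0.42 ± 0.23, and Crabp1, the paralogue of Crabp2, by -0.16 ± 0.21.

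Of 9 measured coregulators, 0 rose and 0 fell, with a median of 0.00. Nrip1, a corepressor that retinoic acid receptors recruit, had the smallest p of this list. It was at 6.81, 6.69 and 6.31 in TGF-β1 arrays 1 to 3, against 7.54, 7.26 and 5.27 in controls 1 to 3, and differed by -0.59 ± 0.16 (adjusted p = 0.0513). Nrip1 passed in 4 of its 17 alternatives (adjusted p = 0.0042 to 0.0491), and turned sign without control 1 (0.47) and without control 2 (0.33). The passes include averaged probe sets, which left the values of its 1 probe set unchanged, and the dimmest genes left out, where 4349 of 13003 genes passed.

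**Figure D3:**
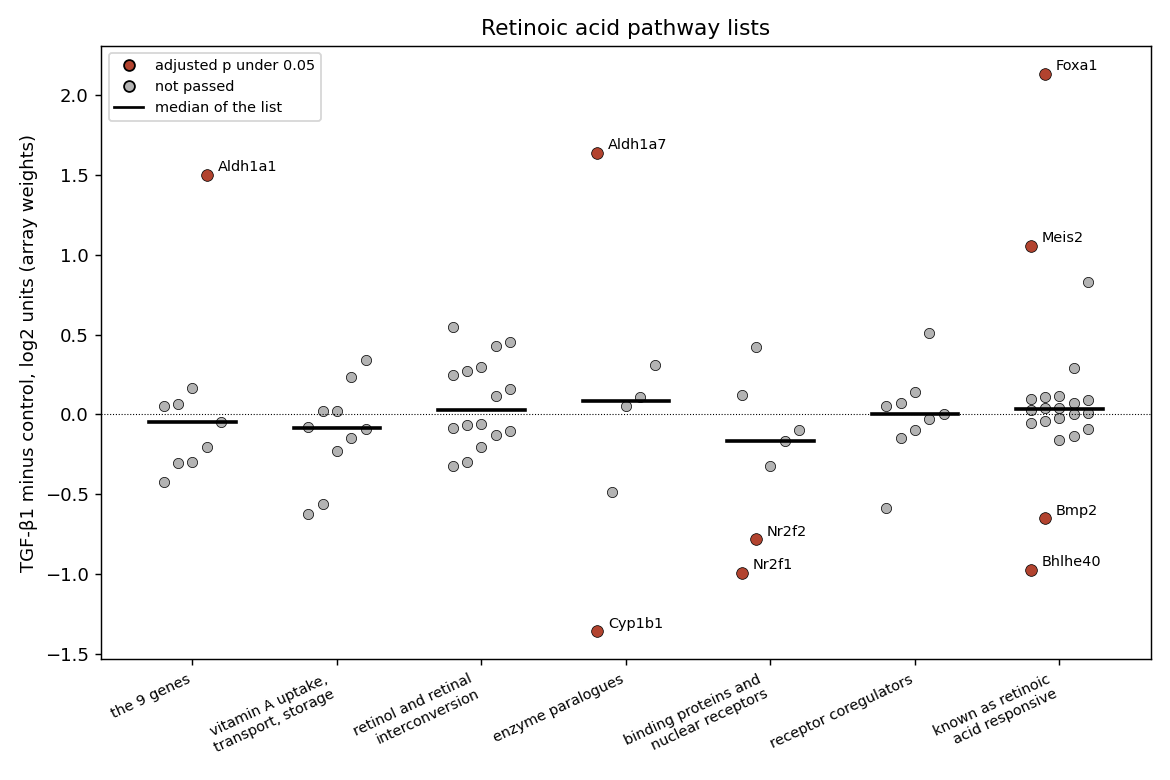
Weighted difference (TGF-β1 minus control, log2 units) of each measured gene, for the 9 genes and the 6 pathway lists; red points passed and are named, grey points did not, and bars give list medians. The medians lie between -0.16 and 0.08, and 18 of the 22 genes known as retinoic acid responsive did not pass.

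Genes known from other systems to respond to retinoic acid were measured for 22 of 27 listed. Of these, 2 rose, 2 fell and 18 did not pass, with a median of 0.03. Foxa1, a transcription factor of gland and gut epithelium, was at 8.60, 8.49 and 7.40 in TGF-β1 arrays 1 to 3, against 7.01, 6.13 and 5.45 in controls 1 to 3. Its groups did not overlap. Foxa1 rose by 2.13 ± 0.24 (adjusted p = 5.94e-04), and by 1.98 ± 0.27 in the fit of 4 arrays (adjusted p = 0.0233). It was at 0.96 without TGF-β1 1 and at 1.02 without TGF-β1 2. Meis2, a homeobox factor, was at 12.06, 11.98 and 10.87 with TGF-β1, against 11.40, 10.73 and 10.67 in controls. TGF-β1 3 lay among the controls, and Meis2 rose by 1.06 ± 0.21 (adjusted p = 0.0125), with an adjusted p of 0.0814 in the fit of 4 arrays. The difference was 0.039 without TGF-β1 1, 0.081 without TGF-β1 2, 0.63 without TGF-β1 3 and 0.70 with no weights.

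The genes that fell in this list were Bhlhe40 and Bmp2. Bhlhe40, a repressor first found as a retinoic acid induced gene and also part of the circadian and hypoxia responses, was at 8.40, 8.03 and 9.11 in TGF-β1 arrays 1 to 3, against 9.12, 9.36 and 8.59 in controls 1 to 3. TGF-β1 3 was level with control 1, and Bhlhe40 fell by 0.97 ± 0.18 (adjusted p = 0.0079), and by 1.02 ± 0.18 in the fit of 4 arrays (adjusted p = 0.0403). It was at -0.54 without TGF-β1 1, -0.36 without TGF-β1 2, -0.54 without control 2 and -0.51 with no weights. Bmp2, a growth factor of the TGF-β family, was at 5.83, 5.59 and 5.53 with TGF-β1, against 6.18, 6.45 and 7.14 in controls. Its groups did not overlap, and it fell by 0.65 ± 0.15 (adjusted p = 0.0241). The adjusted p was 0.125 in the fit of 4 arrays, and the difference was -1.06 without control 1. The signal of Bmp2 was dim, below the array's median over all probe sets (6.69 to 6.72) in every array but control 3. The Hox genes, which retinoic acid is known to switch on along the embryonic axis, did not pass in any of 8 measured cases, with differences between -0.09 and 0.11. Stra8, a retinoic acid target of germ cells, differed by 0.03 ± 0.15, and Tgm2, a transglutaminase induced by retinoic acid in many cells, by 0.29 ± 0.18.

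**Figure D4:**
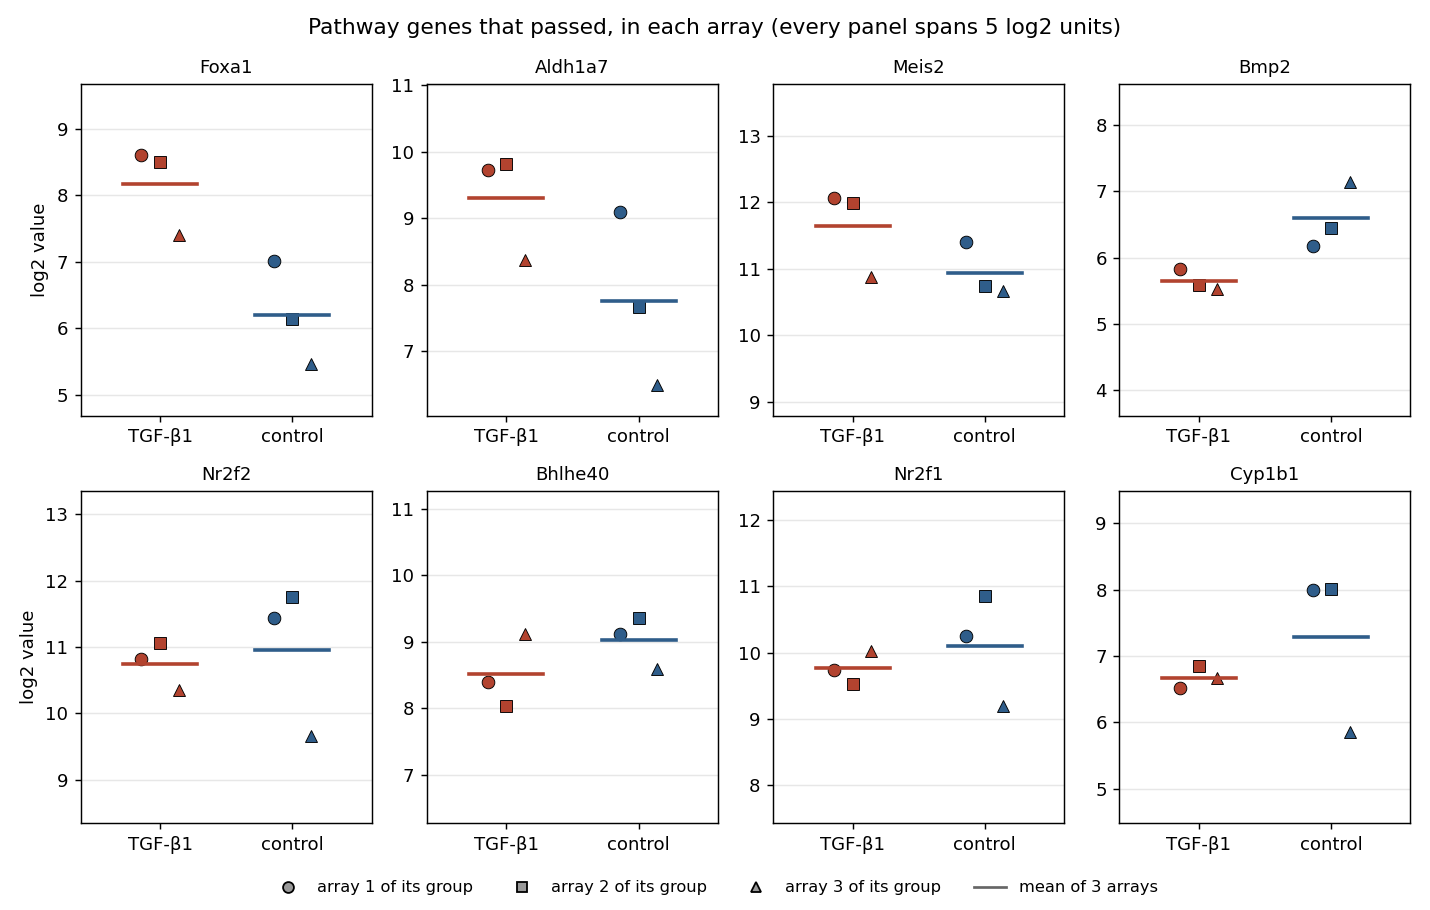
Log2 value in every array of the 8 pathway genes that passed, TGF-β1 left of control in each panel; symbols give the array number within its group and lines the unweighted means of 3 arrays. Foxa1 and Bmp2 are the genes without overlap, and control 3 (blue triangle) is the lowest array for all but Bhlhe40 and Bmp2, and the highest for Bmp2.

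Markers of cell types moved as well. Over all genes 3.45% rose and 3.44% fell. Of 12 salivary epithelial markers 6 rose and 0 fell, and the mean log2 value of the list was 9.96 to 10.76 in the TGF-β1 arrays, against 7.45 to 9.13 in the controls (8.62 and 9.13 in controls 2 and 1). The largest rises were those of Bpifa2 (7.87) and Smgc (4.86), genes of secreted salivary proteins, which weigh heavily in this mean. Krt14, Krt19 and Krt5 were the members with negative differences (-0.59, -0.56 and -0.49), and did not pass. Of 10 measured mesenchymal markers 0 rose and 2 fell, with list means of 8.996 to 9.31 with TGF-β1, against 7.23 to 9.72 in controls (9.31 and 9.72 in controls 1 and 2). Of 5 measured neuronal markers 4 rose and 0 fell, with list means of 6.41 to 6.63 with TGF-β1, against 5.76 to 6.61 in controls (5.76 and 5.98 in controls 1 and 2). Of 6 endothelial markers 0 rose and 1 fell, of 2 measured red blood cell markers 0 rose and 1 fell (Hbb-y, an embryonic globin, by 1.50 with an adjusted p of 0.0457), and none of 5 leukocyte, 2 glial, 5 skeletal muscle and 4 cartilage markers passed. In the fit of 4 arrays 4 of the 12 epithelial, 0 of the 10 mesenchymal, 1 of the 5 neuronal, 1 of the 6 endothelial and 0 of the 2 red blood cell markers passed, and with no weights 0 of any list. The part of these shifts in the differences of Aldh1a1, Aldh1a7, Foxa1, Nr2f1 and Nr2f2 was not tested. In whole glands, fewer cells of a type and less RNA per cell cannot be told apart.

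Genes with a profile like that of a member were sought over the 5 arrays other than control 3, for the 3 members of smallest p, by the root mean square difference of log2 values after each gene was centred on its mean. Nearest to Aldh1a1 were Plpp2, a lipid phosphate phosphatase, at a distance of 0.094, Atp10b, a lipid flippase, at 0.12, and Car8, a protein related to carbonic anhydrases, at 0.17. Plpp2 was at 9.78, 9.63 and 9.20 in TGF-β1 arrays 1 to 3, against 8.78 and 7.92 in controls 1 and 2, with control 2 lowest as for Aldh1a1. Control 3, which was not used for the distance, was at 5.76 for Plpp2 and at 6.95 for Atp10b. Nearest to Aldh1a2 were Coa7 (0.063), Aga (0.088) and Ulbp1 (0.090), all highest in TGF-β1 3 and lowest in TGF-β1 2 among the 5 arrays, while control 3 was lower still for Aga (6.54) and Ulbp1 (5.30). Nearest to Cyp26a1 were Efna3 (0.041), Otud7a (0.043) and Mapk8ip3 (0.046), all highest in control 2 among the 5 arrays. Likeness over these 5 arrays was the rule of choice, so a shared highest or lowest array is no separate result. No background of distances was computed.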

How the data were processed

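Transcripts of 6 arrays were compared, 3 per group by their labels. The deposited log2 values were made by the authors with RMA, per the submitters' processing notes, which give no version; RMA subtracts background, normalizes arrays and fits 1 value per probe set. Scanner files were not used here, and the labels state no genome build and no hybridisation date. Of 22206 probe sets, 19572 had 1 gene symbol, 0 several and 2634 none; for a gene with several, the one of highest mean was used, leaving 19505 genes. No filter or further scaling was applied.

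Differences came from limma 3.58.1 under R 4.3.3: lmFit with arrayWeights and no term other than the group, then eBayes. Tests were two-sided, and p-values were adjusted by Benjamini-Hochberg over all 19505 genes. The weights' estimation stopped short of its tolerance and the weights are then taken as known, so p-values are too small. The number of arrays limits the precision.

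The 9 genes, the lists, the rule for named genes and the weighted fit were chosen with earlier results of these data known. Named were the 9 genes, up to 4 passing genes per list and direction or the 1 of smallest p, Aldh1a7, and the nearest profiles, leaving out predicted genes, smell receptors and small RNAs; Rdh10, Dhrs3, Cyp26c1, the retinoid X receptors, Fabp5, Crabp1, Stra8 and Tgm2 were added for their roles after values were seen. Alternatives were no weights, gene-by-gene weights, arrays left out, quantile normalization, median centring, leaving out the dimmest genes, averaged probe sets, a trended prior, a replicate block and other thresholds.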

Additional observations from a re-analysis of the deposited data

How the results depend on the processing

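The call of Aldh1a1 and all counts depended on how the arrays were weighted; the cause was not tested, beyond the smaller number of arrays or genes that a setting leaves. With gene-by-gene weights 874 genes, 1 of the 9 genes and 5 pathway genes passed; with no weights 0, 0 and 0 (389 genes at an unadjusted p under 0.05, and a median difference over all genes of -0.14), and without control 3 and TGF-β1 3 505, 0 and 3. Quantile normalization gave 450 genes, 1 of the 9 and 2 pathway genes, median centring 265, 0 and 2. With the dimmest genes left out, 13003 genes were kept, among them 8 members (not Cyp26a1) and 56 pathway genes. Of these, 4349 of the 13003 genes, 3 of the 8 members (Aldh1a1 higher, Aldh1a2 and Rarb lower) and 17 of the 56 pathway genes passed. The last 2 counts are read against the large share of all genes that passed. Thresholds of 0.01 and 0.1 gave 538 and 2127 genes and 1 of the 9 each. Leaving out 1 array gave 0 to 544 genes, 0 to 0 of the 9, and 0 to 3 pathway genes. With the replicate block 2502 genes, 2 of the 9 and 14 pathway genes passed with weights, and 0, 0 and 0 without. Deviations from the group mean were correlated at -0.07, -0.01 and -0.05 between arrays of the same number. Control 3, unlike all other arrays, enters every control deviation, so these values cannot decide whether the numbers stand for pairs. The labels do not say what the numbers mean.

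Aldh1a1 kept its direction in all 17 alternatives and passed in 6 (difference 0.43 to 1.78). All 6 kept every array and used array weights, so they are close to the main fit. One of them, averaged probe sets, left the values of its 1 probe set unchanged. Crabp2 was positive and not passed in all 17. Other members turned sign. With no weights, with or without the replicate block, Rarb was at 0.25 and Rarg at 0.065; Aldh1a3 was at -0.061 with the dimmest genes left out. Leaving out 1 array, Aldh1a2 ranged from -0.52 to 0.45, Aldh1a3 from -0.48 to 0.74, Cyp26a1 from -0.44 to 0.091, Cyp26b1 from -0.81 to 0.090, Rara from -0.18 to 0.32, Rarb from -0.20 to 0.53, Rarg from -0.24 to 0.28, Nr2f2 from -0.82 to 0.32 and Nrip1 from -1.01 to 0.47. Without control 3 and with no weights Rara was at -0.065, Rarb at 0.015 and Nr2f2 at -0.85.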

Other observations

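Some pathway genes differed more within the TGF-β1 group than between the groups; they were picked after their values were seen. Rbp4, the carrier protein of retinol in blood, was at 5.58, 5.71 and 9.92 in TGF-β1 arrays 1 to 3, against 6.34, 6.44 and 10.03 in controls 1 to 3. TGF-β1 3 and control 3 were thus both high for Rbp4. Rarres2, the gene of the secreted protein chemerin, was at 6.77, 5.90 and 9.27 with TGF-β1, against 6.24, 6.74 and 7.38 in controls. Adh1, an alcohol dehydrogenase that also oxidises retinol, was at 6.61, 6.52 and 8.67 with TGF-β1, against 6.89, 6.21 and 7.46 in controls. TGF-β1 3 was the highest array for Rarres2 and Adh1, and neither gene passed (adjusted p = 0.995 and 0.624).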
